A study of Mus musculus with 8 samples.

Results

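Expression in mouse epididymal fat after the obestatin fragment analog Nt8U was compared with expression after saline, in 4 of the 8 samples of the series. The samples were chosen by the agent named in their labels: 2 samples labelled Nt8U and 2 labelled saline. All were 5-week-old CFT Swiss albino mice, accustomed to eating at night and to saline injections, then injected intraperitoneally every evening for 8 days before feeding. The other samples came from mice given obestatin or its N-terminal peptide under the same scheme. The sources conflict on the dose (80 ng/kg or 80 nmol/kg) and on the group size (6 or 3 mice), and the tissue is named both as fat pad and as epididymal tissue. No source says whether a sample is 1 mouse or a pool, and p-values here reflect the spread among these samples alone, which may be technical. Each sample was 1 channel of a 2-colour Agilent array, with replicate 1 labelled Cy3 and replicate 2 labelled Cy5. Since each array carried a whole group, effects of the array and of the agent cannot be told apart, and Nt8U was compared with saline within each dye.

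Obestatin is cut from the precursor that also gives ghrelin, the stomach hormone that stimulates feeding. The orphan receptor GPR39 was proposed as its receptor, which has been disputed. The epididymal fat pad is a visceral white fat depot attached to the epididymis and testis. Besides adipocytes, which store triglyceride and secrete leptin and adiponectin, it holds capillary endothelium, resident macrophages, fibroblasts that lay down matrix, and a mesothelial cover.

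The tissue label was checked against marker genes first. All 24 measured adipocyte genes were well above background in all 4 samples, but genes of the epididymis and of testis germ cells were bright as well. Of 25 epididymis genes, 23, 22, 4 and 21 were above background in saline replicates 1 and 2 and Nt8U replicates 1 and 2. Their summed intensity was 20.45 and 16.12 in saline and 15.53 and 15.71 in Nt8U on the normalized log2 scale, so saline replicate 1 stood apart. The summed intensity of 37 germ cell genes was 15.34 and 20.33 in saline and 14.78 and 19.43 in Nt8U, so both Cy5 samples stood apart. In both saline and Nt8U the germ cell genes were therefore high in Cy5 and low in Cy3. Within a dye their median differed by -0.38 in Cy3 and -0.92 in Cy5. Prm2, which packs DNA in sperm, stood at 12.20 and 15.96 in saline and 11.71 and 15.19 in Nt8U, and was saturated in both Cy5 samples. Below, the Cy3 comparison is the one without the samples rich in germ cell genes. The Cy5 comparison is the one without saline replicate 1, the sample richest in epididymis genes. It still held an epididymis difference, with list medians of 10.12 in saline replicate 2 and 7.12 in Nt8U replicate 2. In bulk tissue, fewer cells of a type and less RNA per cell cannot be told apart.

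**Figure D1:**
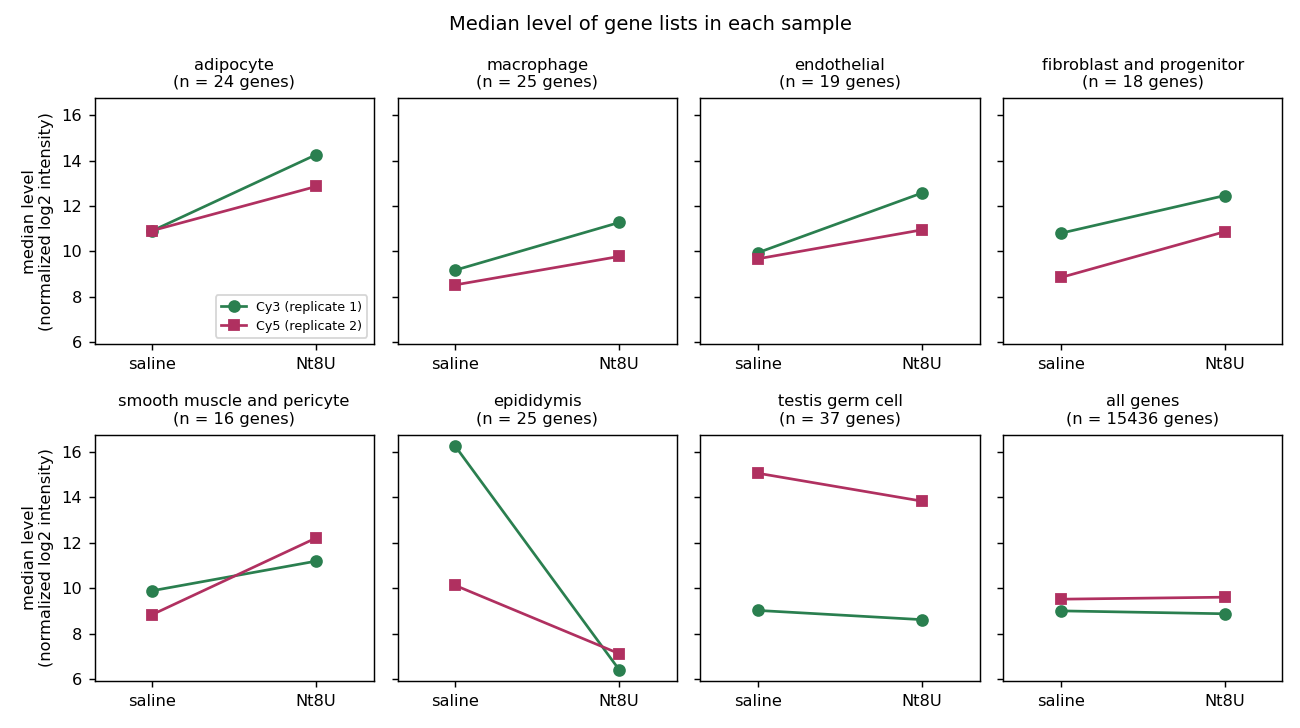
Median normalized log2 intensity of 7 gene lists and of all genes (y axis) in saline and Nt8U (x axis), with lines joining the samples of a dye. Adipocyte, macrophage, endothelial and fibroblast medians are higher in Nt8U in both dyes, epididymis medians are lower in both, and germ cell medians differ far more between the dyes than between the groups.

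Of 15436 genes tested, limma called 0 (0%) at an adjusted p under 0.05, and the lowest adjusted p was 0.447. At an unadjusted p under 0.05, 1070 genes (6.93%) were higher and 184 (1.19%) lower in Nt8U. At least 2-fold in both dyes, 849 genes (5.5%) were higher and 212 (1.37%) lower. Both Nt8U samples lay above both saline samples in 2316 genes (15%) and below them in 1633 (10.6%). The median SE of a difference was 0.49 on the log2 scale, at which an unadjusted p of 0.05 takes a difference of 1.29. The median difference of all genes was -0.12. The saline samples themselves differed by at least 2-fold in 51.4% of genes and the Nt8U samples in 36.4%. With the scanner software's processed signals the counts at least 2-fold in both dyes were 1317 and 812, and without loess 780 and 57. Among the 7500 genes under 2-fold apart in the saline samples, 507 were higher and 27 lower, so most of the 212 lower genes were at least 2-fold apart between the saline samples themselves. Of the 212 lower genes, 129 were over 2-fold higher in saline replicate 2 than in replicate 1, and 56 the other way round.

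**Figure D2:**
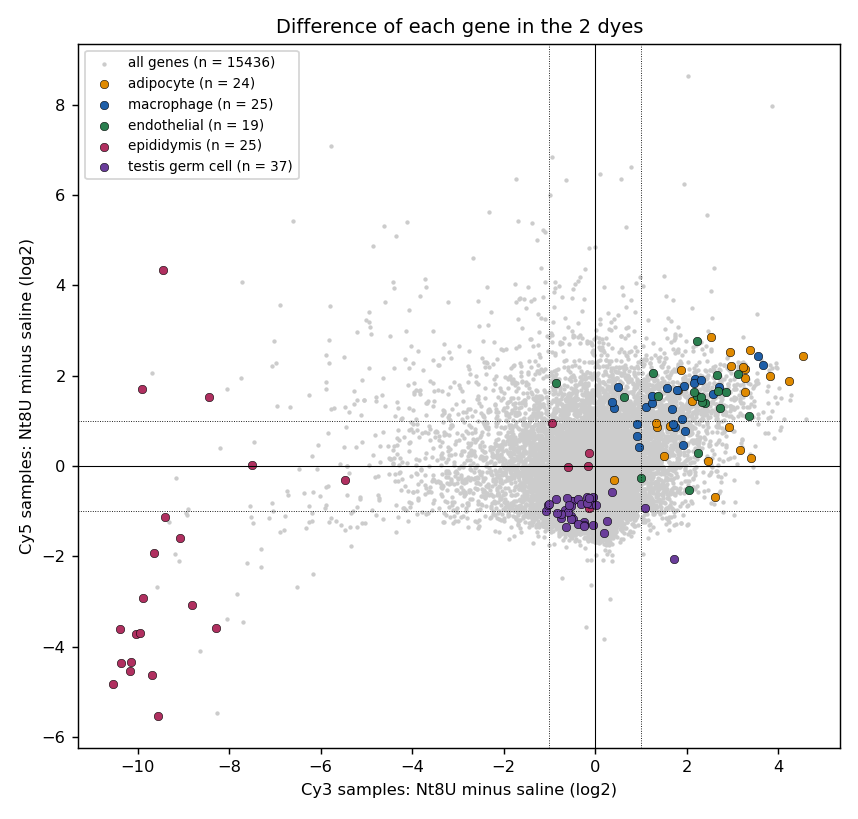
Nt8U minus saline for each gene in the Cy3 samples (x axis, log2) and in the Cy5 samples (y axis, log2), with dotted lines at 2-fold. Adipocyte, macrophage and endothelial genes lie mostly at the upper right, epididymis genes at the far left and germ cell genes just below 0. Over all genes the differences in the 2 dyes correlate weakly (Pearson r = 0.165, genes not being independent replicates).

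Adipocyte genes were higher in Nt8U. Their median difference was 1.95 over 24 genes, with 2.94 in Cy3 and 1.66 in Cy5. Of the 24 genes, 14 (58.3%) were at least 2-fold higher in both dyes and 0 lower, against 5.5% of all genes, and 12 had an unadjusted p under 0.05. In 21 of them both Nt8U samples lay above both saline samples, against 15% of all genes. Pparg, the master transcription factor of adipocyte differentiation, stood at 9.50 and 9.49 in saline and 13.32 and 11.49 in Nt8U. Both Nt8U samples lay above saline, by 7.53-fold on average (log2 difference 2.91, SE 0.53, n = 2 per group, limma adjusted p = 0.447). Its partner Cebpa, chosen after its values were seen, differed by 2.46 (SE 0.73). Thrsp, a lipogenic regulator, stood at 10.66 and 10.42 in saline and at 15.20 and 12.86 in Nt8U, 11.3-fold apart (3.49, SE 0.69), the largest difference among the 24. Orm1, an acute-phase glycoprotein, differed by 3.07 (SE 0.61) and Sncg, a synuclein of adipocytes, by 2.99 (SE 0.76). Of 26 adipocyte symbols, Cfd and Adrb3 were not tested. The brightest members were limited by saturation: Cidec, Lpl, Car3, Plin4, Adipoq and Fabp4 were saturated in both Nt8U samples. Fabp4, the fatty acid carrier of adipocytes, was also saturated in saline replicate 2, overlapped between the groups and lay at 0.40 in Cy3 and -0.30 in Cy5, so no direction is given for it, and the others have only a lower bound. With the mean levels of the germ cell and epididymis lists added to the fit as covariates, the adipocyte median was 1.86. Here and below, that fit leaves fewer residual degrees of freedom over 8 samples than the 3 of the main fit. Its values are therefore rough and are given as description only.

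Hormones that fat secretes and receptors through which it is addressed followed the same direction. Of 15 measured adipokine and hormone receptor genes, 8 were at least 2-fold higher in both dyes and 0 lower, with a median of 1.40. Lep, which encodes leptin, the satiety hormone of adipocytes, stood at 10.33 and 8.68 in saline and 13.28 and 11.20 in Nt8U. The groups did not overlap, and the difference was 6.65-fold (2.73, SE 0.63, limma adjusted p = 0.447). Retn, resistin, stood at 11.82 and 11.19 in saline and 15.11 and 13.34 in Nt8U (2.72, SE 0.88, adjusted p = 0.531). Adipoq, adiponectin, stood at 14.31 and 14.00 in saline and 16.42 and 15.44 in Nt8U. It was at least 3.41-fold higher, since it was saturated in both Nt8U samples (limma adjusted p = 0.708). Ghr, the growth hormone receptor, differed by 2.64 (SE 0.83) and Rbp4, retinol binding protein, by 2.53 (SE 0.64). Adipor2, an adiponectin receptor, was also at least 2-fold higher in both dyes, while Lepr, the leptin receptor, differed by -0.16 in Cy3 and 0.89 in Cy5.

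Lipid genes were split by dye. Of 20 fatty acid and triglyceride synthesis genes, 5 were at least 2-fold higher in both dyes, and the median was 2.22 in Cy3 but 0.80 in Cy5. Acacb, which makes the malonyl-CoA that restrains fatty acid entry into mitochondria, stood at 9.64 and 9.74 in saline and 13.70 and 11.24 in Nt8U (2.78, SE 0.69, limma adjusted p = 0.451). Acaca, its cytosolic counterpart for synthesis, differed by 4.12 in Cy3 and 1.04 in Cy5. With both of these covariates Acaca lay at -0.19, and the median of the list was 0.18, against 1.16 without them. Fasn, fatty acid synthase, was saturated in both Nt8U samples and lay at 0.72 in Cy3 and -0.11 in Cy5, so its direction is not given.

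Lipolysis and lipid droplet genes had 8 of 21 members at least 2-fold higher in both dyes, with medians of 2.44 in Cy3 and 0.87 in Cy5. Plin1, the coat protein of the adipocyte lipid droplet, stood at 12.16 and 11.43 in saline and 15.38 and 13.61 in Nt8U, 6.52-fold apart (2.70, SE 0.79, limma adjusted p = 0.498). Ces1d, a triglyceride hydrolase, differed by 2.98 (SE 1.07), G0s2, an inhibitor of adipose triglyceride lipase, by 2.58 (SE 0.58), and Prkar2b, a regulatory subunit of protein kinase A, by 2.37 (SE 0.48). The main lipases of adipocytes, chosen after their values were seen, differed mostly in Cy3. Pnpla2, adipose triglyceride lipase, differed by 2.46 in Cy3 and 0.11 in Cy5, and Lipe, hormone-sensitive lipase, by 3.40 and 0.18. With both covariates the median of the list was 0.43. Of 25 fatty acid oxidation genes 5 were at least 2-fold higher in both dyes (median 0.86), among them Pdk4, which shifts fuel use from glucose to fat (2.59, SE 0.81), and the acyl-CoA dehydrogenases Acadm (1.48, SE 0.48) and Acads (1.42, SE 0.38). Of 12 brown and beige fat genes 1 (8.33%) was at least 2-fold higher in both dyes, a share near the 5.5% of all genes. It was Cox7a1, a subunit of cytochrome oxidase (1.20, SE 0.41), and the median of the list was 0.42, or -0.24 with both covariates. Ucp1, the uncoupling protein of brown fat, stood at 6.27 and 6.76 in saline and 6.79 and 5.96 in Nt8U, so the groups overlapped, and it was not well above background in saline replicate 1.

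Glucose uptake and lipoprotein genes had a few strong members. Slc2a4, the insulin-responsive glucose transporter, stood at 10.48 and 9.28 in saline and 13.02 and 12.14 in Nt8U, so that both Nt8U samples lay above saline (6.51-fold, 2.70, SE 0.70, limma adjusted p = 0.458). Irs1, an adaptor of the insulin receptor, differed by 1.96 (SE 0.63), Foxo1, a transcription factor restrained by insulin, by 1.79 (SE 0.43), and Cav1, the caveolin of adipocyte and endothelial membranes, by 2.01 (SE 0.92). In all, 5 of 22 insulin signalling genes were at least 2-fold higher in both dyes (median 0.61). Of 17 lipoprotein and cholesterol transport genes 6 were, with a median of 1.14 but only 0.43 in Cy3. They included Cd36, a fatty acid transporter (2.42, SE 1.04), Lrp1, an endocytic receptor (1.69, SE 0.38), and Angptl4, an inhibitor of lipoprotein lipase, which was at least 3.96-fold higher and saturated in both Nt8U samples. None of 18 cholesterol synthesis genes was at least 2-fold apart in both dyes (0 higher, 0 lower, median -0.09). That is too few genes to set against the 5.5% higher and 1.37% lower of all genes.

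The 4 promoters printed here belong to a fat hormone and a macrophage gene that were higher in Nt8U, and to a pair of epididymal genes that were lower, so that the regulatory sequence stands beside the values. Each run is the 200 bases before the annotated start, from RefSeq on build GRCm38.p6, 5′ to 3′ on the gene's strand. Of 101 named genes, 79 had an entry. Capitals mark matches on either strand to AGAACA (the androgen and glucocorticoid receptor half-site), AGGTCA (a half-site of other nuclear receptors), TTGCNNAA (a C/EBP core) or GGAAGT (an ETS and PU.1 core). Lep lies at chr6:29060021-29060220 on the plus strand, C1qc at chr4:136892915-136893114 on the minus strand, Lcn8 at chr2:25652918-25653117 and Rnase10 at chr14:51007551-51007750, both on the plus strand.
Lep: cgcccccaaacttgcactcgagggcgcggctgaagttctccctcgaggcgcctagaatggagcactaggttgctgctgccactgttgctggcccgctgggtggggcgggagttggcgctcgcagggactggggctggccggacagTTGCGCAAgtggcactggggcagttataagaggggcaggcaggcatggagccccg
C1qc: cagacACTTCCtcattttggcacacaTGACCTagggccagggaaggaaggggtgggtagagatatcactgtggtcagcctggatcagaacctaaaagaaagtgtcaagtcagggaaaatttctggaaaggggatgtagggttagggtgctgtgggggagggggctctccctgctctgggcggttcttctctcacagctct
Lcn8: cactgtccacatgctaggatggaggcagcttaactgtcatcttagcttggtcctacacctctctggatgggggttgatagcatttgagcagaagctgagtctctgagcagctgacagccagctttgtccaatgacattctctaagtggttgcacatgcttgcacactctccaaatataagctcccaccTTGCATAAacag
Rnase10: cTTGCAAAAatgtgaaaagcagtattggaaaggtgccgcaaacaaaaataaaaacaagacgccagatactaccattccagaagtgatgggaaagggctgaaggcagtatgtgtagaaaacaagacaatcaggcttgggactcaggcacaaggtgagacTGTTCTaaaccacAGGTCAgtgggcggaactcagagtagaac

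The Lep and Lcn8 windows each held 1 C/EBP core. The C1qc window held 1 ETS core and 1 nuclear receptor half-site, and Rnase10 held 1 androgen receptor half-site, 1 half-site of other nuclear receptors and 1 C/EBP core. Over 27025 promoters of the same length, 12.9% held the androgen receptor half-site, 11.2% the other half-site, 7.47% the C/EBP core and 16.9% the ETS core. The androgen receptor half-site was in 6 of 20 epididymis promoters, 1 of 17 adipocyte promoters and 5 of 18 macrophage promoters. The ETS core was in 1, 2 and 8 of them and the C/EBP core in 2, 2 and 0. A match describes these letters and is no evidence that a factor binds there.

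Macrophage genes were higher in Nt8U in both dyes, all 25 measured members included, against 3823 of all 15436 genes. Their median difference was 1.40 (1.75 in Cy3 and 1.42 in Cy5). At least 2-fold in both dyes, 15 of 25 (60%) were higher, and 18 had an unadjusted p under 0.05. C1qc, a chain of complement C1q that macrophages make and whose promoter is printed above, stood at 10.51 and 9.35 in saline and 12.67 and 11.20 in Nt8U. The groups did not overlap, and the difference was 4.02-fold (2.01, SE 0.29, n = 2 per group, limma adjusted p = 0.447). Csf1r, the growth factor receptor on which macrophages depend, stood at 9.61 and 8.53 in saline and 11.55 and 10.29 in Nt8U (1.85, SE 0.27). Lyve1, which binds hyaluronan and marks lymphatic endothelium and some tissue macrophages, differed by 2.06 (SE 0.29). Cd163, the haemoglobin scavenger receptor of resident macrophages, stood at 7.70 and 7.52 in saline and 11.37 and 9.75 in Nt8U, 7.72-fold apart (2.95, SE 0.57). Ccl6, a chemokine, differed by 3.00 (SE 0.78), and the lectins Cd209f and Clec10a by 2.23 (SE 0.53) and 2.11 (SE 0.64). Acp5, the tartrate-resistant acid phosphatase of osteoclasts and macrophages, was among the 12 higher genes with the smallest p and differed by 2.76 (SE 0.36). The macrophage median was 1.59 with both covariates.

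Antigen presentation, chemokine and interferon genes accompanied them. Of 8 MHC class II genes 4 were at least 2-fold higher in both dyes, the class II chains H2-Aa (2.00, SE 0.31), H2-Ab1 (1.88, SE 0.29) and H2-Eb1 (2.04, SE 0.45) and the invariant chain Cd74 (1.57, SE 0.39). H2-Aa stood at 9.46 and 7.82 in saline and 11.74 and 9.53 in Nt8U, and the higher saline sample lay just under the lower Nt8U sample. The peptide-loading genes H2-DMa and H2-DMb1 lay at 0.15 and -0.16 in Cy3 and at -0.35 and -0.39 in Cy5. Of 21 chemokine genes 6 were at least 2-fold higher in both dyes, led by Ccl9 (2.49, SE 0.59), Ccl11, the eosinophil attractant eotaxin (2.41, SE 0.54), and Ccl24, another eotaxin (2.26, SE 0.41). Of 26 interferon response genes 11 were at least 2-fold higher in both dyes and 0 lower, with medians of 1.16 in Cy3 and 1.07 in Cy5. Gbp2, a guanylate-binding protein, differed by 2.27 (SE 0.35), Rsad2, the antiviral enzyme viperin, by 2.07 (SE 0.38), and Iigp1, an interferon-induced GTPase, by 1.58 (SE 0.31). Of 15 T and NK cell genes 0 and of 7 B cell genes 1 were at least 2-fold higher in both dyes, counts too small to set against the 5.5% of all genes. Their medians of 0.24 and 0.23 were 1.22 and 1.08 when the scanner software's own signals were used. The 1 B cell gene was Ighm, the immunoglobulin mu heavy chain, at 10.57 and 8.58 in saline and 13.04 and 11.58 in Nt8U. Both Nt8U samples lay above saline, and its unadjusted p was the smallest of all 15436 genes (2.73, SE 0.32, limma adjusted p = 0.447).

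Endothelial genes were higher too, with 14 of 19 (73.7%) at least 2-fold higher in both dyes and a median of 1.90 (2.25 in Cy3, 1.55 in Cy5). Robo4, a guidance receptor of vascular endothelium, stood at 10.75 and 9.85 in saline and 13.42 and 11.86 in Nt8U, 5.07-fold apart (2.34, SE 0.42, limma adjusted p = 0.447). Gpihbp1, which anchors lipoprotein lipase to the capillary wall, differed by 2.58 (SE 0.78), Aqp1, a water channel, by 2.50 (SE 0.86), and Cldn5, a tight junction claudin, by 2.25 (SE 0.49). Cdh13, an adiponectin-binding cadherin outside the list, differed by 2.48 (SE 0.36). The median was 1.28 with both covariates.

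**Figure D3:**
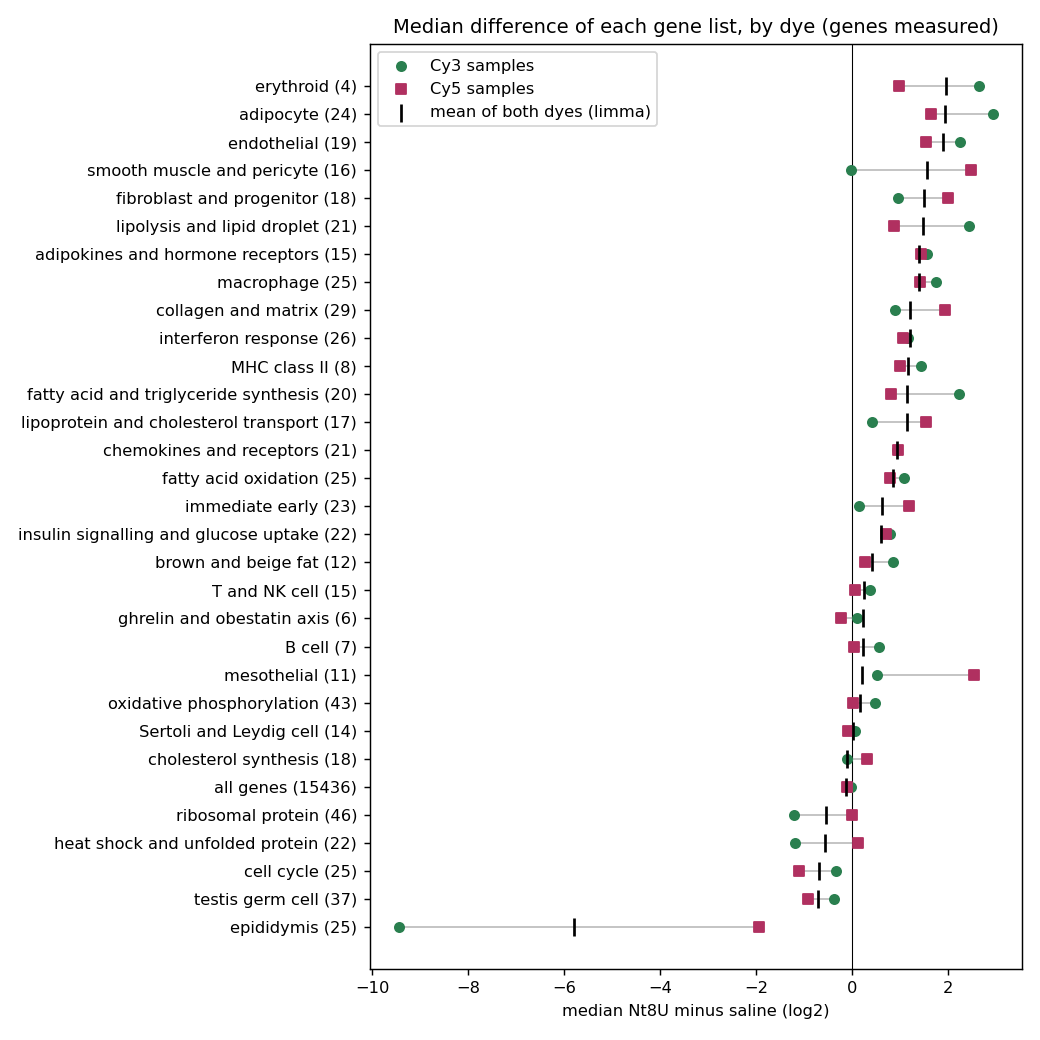
Median Nt8U minus saline difference (x axis, log2) of 30 gene lists and of all genes, with the number of measured genes in brackets. Circles are the Cy3 samples, squares the Cy5 samples and bars the limma estimate; adipocyte, endothelial and macrophage medians lie above 1 in both dyes, while smooth muscle and mesothelial medians lie far apart between the dyes.

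Stromal genes depended more on the dye. Of 18 fibroblast genes 8 and of 29 matrix genes 9 were at least 2-fold higher in both dyes, with medians of 0.97 and 0.89 in Cy3 and 2.00 and 1.95 in Cy5. Fn1, fibronectin, stood at 9.14 and 8.36 in saline and 11.47 and 10.95 in Nt8U, so the groups did not overlap (5.52-fold, 2.47, SE 0.38, limma adjusted p = 0.447). The basement membrane collagens Col4a1 and Col4a2 differed by 2.43 (SE 0.47) and 2.17 (SE 0.35), and Col5a3, a minor fibrillar collagen, by 2.66 (SE 0.87). Col1a1, the main fibrillar collagen, chosen after its values were seen, went opposite ways, at -1.64 in Cy3 and 3.73 in Cy5. Sfrp2, a secreted modulator of Wnt signalling, differed by 2.86 (SE 0.86), Dpt, dermatopontin, by 2.17 (SE 0.42), Pdgfrb by 2.00 (SE 0.65) and Igf1, insulin-like growth factor, by 2.32 (SE 0.58).

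Among 16 smooth muscle and pericyte genes 5 were at least 2-fold higher in both dyes, but the median was -0.02 in Cy3 and 2.48 in Cy5. Synpo2, an actin-binding protein, stood at 9.04 and 8.72 in saline and 12.57 and 12.07 in Nt8U, and both dyes gave nearly the same difference (10.9-fold, 3.44, SE 0.65, limma adjusted p = 0.447). The pericyte genes Cspg4 and Rgs5 differed by 2.15 (SE 0.34) and 1.98 (SE 0.42). The contractile genes Myh11 and Des, chosen after their values were seen, differed by -1.14 and -0.14 in Cy3 and by 5.23 and 4.83 in Cy5. Of 11 mesothelial genes 3 were higher in both dyes: Msln, mesothelin (2.53, SE 0.96), Upk3b (2.20, SE 0.65) and Gpm6a (2.16, SE 0.51). The epithelial keratins Krt8 and Krt18 of that list, which duct epithelium also makes, lay at -5.82 and -6.88 in Cy3 and at 2.28 and 3.56 in Cy5. With both covariates the medians were 2.52 for fibroblast, 1.99 for matrix, 3.69 for smooth muscle and 3.04 for mesothelial genes. Without them the last 3 were 1.22, 1.56 and 0.21.

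Among 4 measured erythroid genes 2 were at least 2-fold higher in both dyes, with a median of 1.97 that was 0.71 with both covariates, 0.99 without saline replicate 1 and 2.96 without saline replicate 2. Hba-a1 is an alpha globin chain whose near-identical copy Hba-a2 may share its probe signal, which leaves the value uncertain. It stood at 12.68 and 13.07 in saline and 15.86 and 15.34 in Nt8U (2.73, SE 0.60, limma adjusted p = 0.447). Hba-a1 was also saturated in Nt8U replicate 2, so its fitted difference is not exact. Alas2, the haem synthesis enzyme of red cells, differed by 2.45 (SE 0.85), and the other measured erythroid genes were Hbb-bt, at least 2.82-fold higher and saturated in both Nt8U samples, and Slc4a1, at 1.38 in Cy3 and 0.34 in Cy5. Dusp1, a phosphatase that ends MAP kinase signals, stood at 9.55 and 9.39 in saline and 11.56 and 11.20 in Nt8U, 3.76-fold apart with little spread in either group (1.91, SE 0.27). In all, 5 of 23 immediate early genes were at least 2-fold higher in both dyes, with medians of 0.16 in Cy3, 1.19 in Cy5 and 1.57 with both covariates, against 0.62 in the fit without them. Ccn1, a matricellular protein (1.92, SE 0.66), and Socs3, an inhibitor of cytokine signals (1.20, SE 0.28), were among them.

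The other higher genes with the smallest p fell in none of these groups. Id3, an inhibitor of helix-loop-helix factors, stood at 9.48 and 8.55 in saline and 12.70 and 11.41 in Nt8U (3.04, SE 0.45). Dmpk, a kinase of muscle, differed by 2.54 (SE 0.36), S100a4, a calcium-binding protein of motile cells, by 2.57 (SE 0.37), Tcn2, the plasma cobalamin carrier, by 2.26 (SE 0.35), and Adcyap1r1, the receptor of the neuropeptide PACAP, by 2.18 (SE 0.33). Trf, transferrin, listed with Sertoli cell genes, differed by 2.77 (SE 0.44). It was the only 1 of 14 Sertoli and Leydig cell genes (7.14%) at least 2-fold higher in both dyes, a share near the 5.5% of all genes. In all 12 higher genes with the smallest p, both Nt8U samples lay above both saline samples, against 15% of all genes. The choice by fold and p favours this, so it is no separate result. Of the 849 genes at least 2-fold higher in both dyes, 767 had no overlap.

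**Figure D4:**
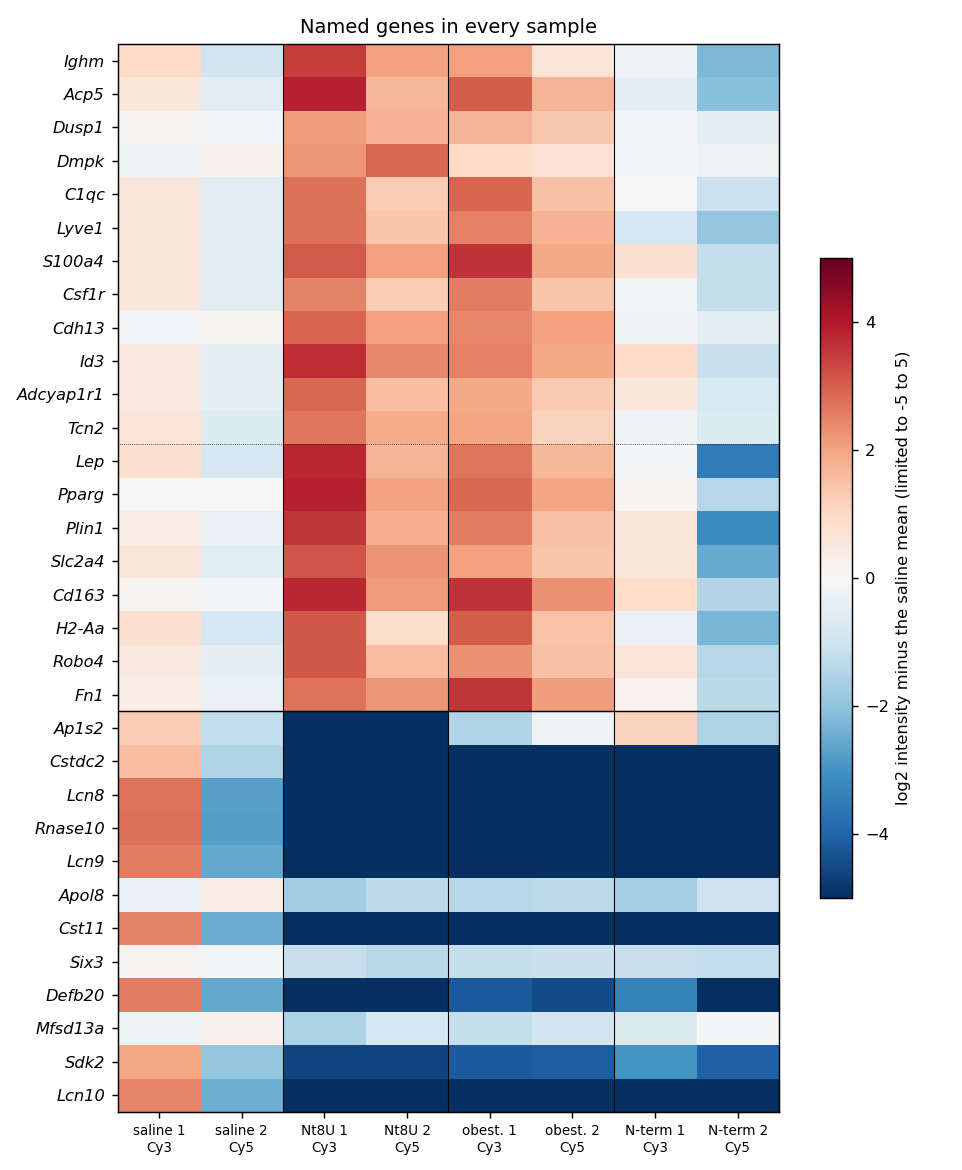
Normalized log2 intensity minus the saline mean (colour, limited to -5 to 5) of 32 named genes (rows) in all 8 samples (columns). The upper block holds genes higher in both Nt8U samples than in both saline samples, and the lower block genes lower in both; most lower genes are epididymal and are brightest in saline replicate 1.

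Epididymis genes made up the strongest lower values. Of 35 epididymis symbols 25 were tested. The list was chosen with earlier results of these data known, and a gene could pass the filter through the saline samples alone. The counts that follow are therefore description only. Of 25 genes 15 (60%) were at least 2-fold lower in both dyes, against 1.37% of all genes, and 0 were higher. Their median was -9.44 in Cy3 and -1.93 in Cy5, and -0.50 with both covariates, of which 1 was made from this list. In Cy3, the scanner did not mark 21 of the 25 as well above background in Nt8U replicate 1, and 11 were saturated in saline replicate 1, so the Cy3 values are limits of the scan rather than exact differences. Without saline replicate 1 the median was -2.94. Lcn8, a lipocalin secreted by the epididymal duct, stood at 16.45 and 10.98 in saline and 5.91 and 6.17 in Nt8U. It was not well above background in either Nt8U sample, and was at least 198-fold lower (limma adjusted p = 0.447). Rnase10, a secreted ribonuclease-like protein of the proximal epididymis, stood at 16.36 and 10.89 in saline and 6.20 and 6.35 in Nt8U (-7.35, SE 1.40). Lcn5, a retinoid-binding lipocalin of the same duct, stood at 16.46 and 12.71 in saline and 6.41 and 8.98 in Nt8U (-6.88, SE 1.82, adjusted p = 0.465). Both saline samples lay above both Nt8U samples in each of these genes, though the saline samples were themselves far apart.

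The lipocalins Lcn9 (-7.15, SE 1.42) and Lcn10 (-5.94, SE 1.38), the cystatin-type genes Cstdc2 (-7.54, SE 1.31) and Cst11 (-7.24, SE 1.53) and the beta-defensin Defb20 (-7.37, SE 1.63) shared the pattern. Lcn5, Lcn8, Lcn9, Cstdc2, Cst11 and Defb20 reached the scanner's ceiling in saline replicate 1, and Rnase10, Lcn5, Cst11, Defb20 and Lcn10 were not well above background in Nt8U replicate 1, so their fitted differences are not exact. Adam7 and Cuzd1, chosen after their values were seen, went opposite ways, at -9.90 and -9.44 in Cy3 and 1.69 and 4.33 in Cy5. Spint4, a protease inhibitor of the epididymis, was not well above background in any of the 4 samples.

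The other named lower genes stood outside the epididymis list. Ap1s2, a subunit of a clathrin adaptor, stood at 15.78 and 13.31 in saline and 7.51 and 7.84 in Nt8U. It led the lower genes by unadjusted p (-6.87, SE 1.15, limma adjusted p = 0.447). With obestatin it stood at 13.02 and 14.30, and with the N-terminal peptide at 15.65 and 13.00. As for every gene, both Nt8U values came from the same probe on the same array, so the 2 dyes are no independent check of probe or array. Sdk2, a cell adhesion protein, differed by -4.60 (SE 1.06) and, like Ap1s2, was brighter in saline replicate 1 than in replicate 2. Smaller differences with tight groups were those of Apol8, an apolipoprotein L (-1.53, SE 0.30), and Mfsd13a, a transporter-like protein (-1.24, SE 0.28). Six3, a homeobox factor, was not well above background in Nt8U and was at least 2.41-fold lower (limma adjusted p = 0.447). Against the same saline samples, Apol8 lay at -1.37 with obestatin and -1.35 with the N-terminal peptide. Six3 lay at -1.16 and -1.20 there, and Mfsd13a at -1.06 and -0.39. Cell cycle and germ cell genes had medians of -0.69 and -0.71. Lower in both dyes were 17 of 25 and 31 of 37 members, against 4778 of all 15436 genes. The direction of these medians rested on single libraries: without saline replicate 2 they were 0.015 and 0.69, and the germ cell median was 0.25 without Nt8U replicate 1 and -2.07 without saline replicate 1. At least 2-fold lower in both dyes were 1 cell cycle gene (4%), the cyclin Ccnb2 (-1.15, SE 1.38), and 0 germ cell genes, against 1.37% of all genes. Counts this small cannot be set apart from that share. Ribosomal protein and heat shock genes lay at -1.20 and -1.19 in Cy3 but at 0.01 and 0.13 in Cy5, with 0 members at least 2-fold lower in both dyes, and at 0.51 and 0.77 with both covariates. Of 46 ribosomal genes 9 and 6 were saturated in saline replicates 1 and 2, and 0 and 21 in Nt8U. Oxidative phosphorylation genes lay at 0.17, with 1 of 43 (2.33%), Cox6b1, at least 2-fold higher in both dyes (1.36, SE 0.49), against 5.5% of all genes.

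The gene of the peptide's own precursor showed no difference beyond the spread of the samples. Ghrl, which encodes ghrelin and obestatin, stood at 6.64 and 10.15 in saline and 6.54 and 8.81 in Nt8U, so the groups overlapped and the dyes differed more than the groups (-0.72, SE 1.15, limma adjusted p = 0.979). Gpr39 stood at 6.88 and 8.10 in saline and 6.57 and 7.57 in Nt8U (-0.42, SE 0.49, 95% interval -1.70 to 0.85). Ghsr, the ghrelin receptor, stood between 6.32 and 6.70 in all 4 samples. Glp1r, a further receptor proposed for obestatin, was not among the genes tested. None of 6 measured genes of this axis was at least 2-fold apart in both dyes (0 higher, 0 lower). That is too few genes to set against the 5.5% higher and 1.37% lower of all genes. Ghrl lay at 0.04 without saline replicate 2.

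Nt8U was set beside the other peptides, each compared with the same saline samples. The adipocyte median was 1.95 with Nt8U, 1.75 with obestatin and -1.10 with the N-terminal peptide. The macrophage median was 1.40, 1.79 and -0.62, the endothelial median 1.90, 1.90 and -0.37, and the interferon median 1.21, 1.21 and -0.40. Epididymis genes lay at -5.79 with Nt8U, -1.57 with obestatin and -0.99 with the N-terminal peptide. The same saline samples enter all 3, so their likeness is not given as a result, and 2 direct contrasts between peptides were tested instead.

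Directly compared with obestatin, limma gave 0 genes at an adjusted p under 0.05 (lowest adjusted p = 0.993), with 41 genes higher and 161 lower at an unadjusted p under 0.05. The obestatin samples had median germ cell levels of 11.48 and 10.13, against 8.61 and 13.83 with Nt8U, so that germ cell genes differed by -2.82 in Cy3 and 3.95 in Cy5. The part of these genes in the contrast was not tested. The difference for Lep was 0.57 (SE 0.63, 95% interval -1.07 to 2.22), for Pparg 0.50 (-0.88 to 1.89), for Csf1r -0.12 (-0.82 to 0.58) and for C1qc -0.17 (-0.93 to 0.58). These intervals hold 0 and reach past 1 for the fat genes, so the samples do not show that the peptides act alike. The interval of Ighm, 0.53 to 2.22 around 1.38, did not hold 0, but its adjusted p was 0.993. Lcn5 separated them most among the named epididymal genes: it stood at 15.09 and 15.15 with obestatin, against 6.41 and 8.98 with Nt8U (-7.43, SE 1.82, adjusted p = 0.993).

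Directly compared with the N-terminal peptide, limma again gave 0 genes (lowest adjusted p = 0.181), with 1418 genes higher and 291 lower at an unadjusted p under 0.05. Lep stood at 9.43 and 6.03 with the N-terminal peptide, below both Nt8U samples, a difference of 4.51 (SE 0.63, limma adjusted p = 0.181). Ighm differed by 4.00 (SE 0.32), Lyve1 by 3.43 (SE 0.29) and Pparg by 3.56 (SE 0.53), each with an adjusted p of 0.181. Median differences were 3.54 for adipocyte, 2.20 for macrophage and 2.40 for endothelial genes. The N-terminal replicates themselves stood apart, with median adipocyte levels of 11.13 and 8.83 and median germ cell levels of 9.30 and 14.94. Without replicate 2, in the Cy3 samples alone, the median differences were 2.70, 2.27 and 2.34, and in Cy5 alone 4.34, 2.10 and 2.38. Germ cell genes differed by -0.55 in Cy3 and -0.82 in Cy5 in this contrast. Apol8 and Six3 were close in these groups, at -0.18 (SE 0.30) and -0.08 (SE 0.27).

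**Figure D5:**
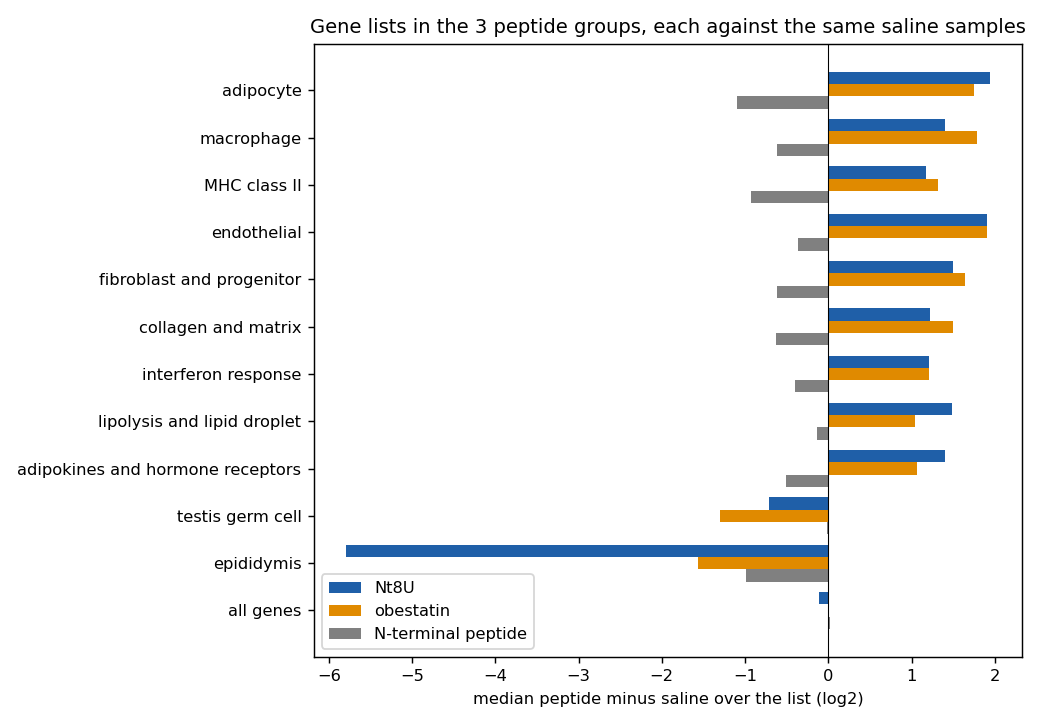
Median difference from saline (x axis, log2) of 11 gene lists and of all genes for Nt8U, obestatin and the N-terminal peptide, each against the same 2 saline samples. Bars for fat, macrophage, vessel and matrix lists point to higher values for Nt8U and obestatin and to lower values for the N-terminal peptide.

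The authors' deposited readme states 552 genes higher and 212 lower with Nt8U, past 2-fold after removal of genes that differed between the saline samples. Over genes under 2-fold apart in the saline samples, the counts here were 507 and 27. The 212 lower genes counted earlier carried no such filter, so the equal number is not a match. The authors' deposited table of genes lower with the N-terminal peptide holds 72 probes, whose mean log2 fold change with Nt8U had a median of -1.03. The same saline samples entered that selection, so the sign of this median is not given as a result. The deposited table of genes higher with the N-terminal peptide, with 37 probes, had a median of 0.085. In the values used here, 5.5% of all genes were at least 2-fold higher in both dyes and 1.37% lower. Of the 72 probes deposited as lower with the N-terminal peptide, 6 lay above 1 and 3 below -1 in both Nt8U samples. Among members chosen after their values were seen, the deposited mean was 2.99 for Mogat2, a triglyceride synthesis enzyme, 2.89 for Hba-a1 and 2.55 for Pnpla3, a lipid droplet lipase, of which replicate 2 showed 0.94. In the same deposited table it was -1.93 for Apol8 and -1.80 for Six3, the lower genes named above.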

How the data were processed

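The deposited scanner intensity values (median signal and background per channel) were made with Feature Extraction 10.5.1.1, per the file headers. Channels were assigned by the deposited readme, and the authors' per-sample log2 fold changes matched it (r = 1), whereas the columns of the authors' log2 value table matched the other channel of the same array. That swap changes no group. The authors' deposited log2 values came from GeneSpring GX 10, per the deposited readme, and each column has its 75th percentile at 0.

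Background was corrected with normexp (offset 50), followed by loess within and Aquantile between arrays (limma 3.58.1, R 4.3.3). Probes had to be flagged well above background in the 2 samples of some group and free of outlier marks, which left 28157 of 41174. The brightest probe stood for each of 15436 genes. limma fitted group means and dye over 8 samples (3 residual and 1.68 prior degrees of freedom), with Benjamini-Hochberg adjustment. A group dim or saturated in both samples gives only a bound, from the lowest signal well above background.

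Named genes were the 12 with the smallest p in each direction among those 2-fold apart in both dyes, up to 4 per list, and 11 chosen genes. Members, lists and rules were chosen with earlier results of these data known. Alternatives are in the closing section. Median signals ran from 73 to 231.5 intensity units against backgrounds from 22 to 31. Having 4 arrays limits the precision.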

Additional observations from a re-analysis of the deposited data

How the results depend on the processing

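Under the authors' log2 values 1 gene passed an adjusted p of 0.05 by limma, Gm16348 (-10.47, SE 0.50, adjusted p = 0.0232), whose probe carries an outlier mark and is not tested above; under every other setting tried 0 genes did, the unblocked fit without the dye term included. That term is also the replicate block, since replicate number and dye coincide. Array as a random block could not be fitted and was not run. Genes at least 2-fold higher and lower in both dyes numbered 1317 and 812 when the software's own processed signals were used, 780 and 57 without loess, 793 and 166 with quantile normalization, 1042 and 247 with the authors' values, and 701 and 174 with the mean of a gene's probes. At 4-fold they numbered 84 and 23. Over genes under 2-fold apart in the saline samples, a filter added after seeing the data, they numbered 507 and 27.

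Leaving out 1 replicate moved the macrophage median between 1.27 and 1.63, the adipocyte median between 1.41 and 2.76, the endothelial median between 1.60 and 2.16 and the epididymis median between -8.33 and -2.94. In the Cy3 samples alone, also added later, the adipocyte median was 2.94, the macrophage median 1.75 and the smooth muscle median -0.022. With the germ cell and epididymis levels in the fit the endothelial median was 1.28, Acaca lay at -0.19, Ghsr at -0.11 and Prm2 at 0.15. Prm2 is itself a member of the germ cell list that made a covariate, so its value there is no independent check. Quantile normalization put Ucp1 at 0.12. Across single replicates left out, Ucp1 ranged from -0.76 to 0.48, Ghrl from -1.48 to 0.044 and Prm2 from -1.64 to 0.37. The cause of these reversals was not tested. Of the values of named genes under other settings, 9 changed sign and 1304 did not. Since no named gene passed the adjusted threshold, these say nothing of significance. Of the medians of 30 lists, 75 values moved by more than the SD between dyes, 374 did not and 1 changed sign from a main value past 1. The 1304 and the 374 include values without loess, without the dye term and from the 4 samples alone. Each group holds 1 sample per dye on 1 array, so averages over both dyes could not differ from the main fit there. Those values are no check of stability. Medians under 1 also changed sign: germ cell genes ranged from -2.07 to 0.69, cell cycle from -1.34 to 0.015, ribosomal from -1.20 to 0.51, heat shock from -1.19 to 0.77, brown fat from -0.24 to 0.85, B cell from -0.057 to 1.08, Sertoli and Leydig cell from -0.52 to 0.49, cholesterol synthesis from -0.13 to 0.39, oxidative phosphorylation from -0.10 to 0.47 and the ghrelin axis from -0.31 to 0.83. With 2 samples a group and germ cell or epididymis genes bright in 3 of 4, these data limit every direction to agreement of 2 dyes. Saturation bounds the brightest fat genes.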

Other observations

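Of 3937 probes without a gene symbol that passed the same filter, 90 (2.29%) were at least 2-fold higher in Nt8U in both dyes and 15 (0.381%) at least 2-fold lower. These are shares of probes, not of genes with 1 probe each, so they were not compared with the shares of named genes.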
